A study of Mus musculus with 9 samples.

Results

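The genes described here repair DNA crosslinks, the lesion through which alkylating drugs such as cyclophosphamide act, or signal that such a lesion is present. There were 35 of them, chosen by name as Fanconi anaemia, homologous recombination, translesion and checkpoint genes that answer alkylation crosslinks. All 35 were found by symbol among the 56748 gene identifiers of the series, and all 35 passed the filter on low values that left 14431 genes to test. The rule used gene names only. The RNA came from ovarian granulosa cells, which surround and feed the oocyte, isolated from wild-type female C57BL/6 mice and not cultured. Control mice are called untreated in one place and vehicle controls in another, and no choice was made between these here. CTX mice received an injection of cyclophosphamide at 120 mg per kg, which models premature ovarian failure. CTX_HCQ mice received the same injection and, by mouth, a daily 40 mg per kg of hydroxychloroquine that began 7 days ahead of it and ended 4 weeks afterwards. Each group had 3 libraries of polyadenylated RNA. The labels do not give the age of the mice or say whether a library held 1 mouse or a pool, and p-values therefore speak only of library-to-library spread, part of which may be technical.

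Cyclophosphamide is turned in the body into a mustard that can tie the opposite strands of DNA together, which stops a replication fork. The Fanconi core complex then attaches ubiquitin to the paired proteins FANCD2 and FANCI, nucleases cut the crosslink out on one strand, a translesion polymerase copies past what is left, and homologous recombination rebuilds the fork. The kinases ATM and ATR sense the damage and act through CHK2 and CHK1 to halt the cell cycle. Granulosa cells of growing follicles divide rapidly, and dividing cells use this machinery without any drug.

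The deposited values are FPKM, read numbers scaled to exon length and library size, and the reads recovered from them summed to between 13573626 (CTX_HCQ 3) and 17280967 (Control 2) per library. The library sizes behind the FPKM were larger, at 15344525 in CTX_HCQ 3 and 17943268 in Control 2, so part of the reads was not recovered. The granulosa marker Foxl2 lay between 67.8 and 104 FPKM and Amh between 172 and 539.6 FPKM in the 9 libraries, and all 13 granulosa markers passed the filter. Other cells contributed RNA too: the oocyte genes Gdf9 and Zp3 lay between 44.5 and 76 and between 36.7 and 73.2 FPKM. The summed FPKM of 7 endothelial markers ran from 23.6 to 69.9 in Control, from 43.5 to 90.2 in CTX and from 29 to 83.8 in CTX_HCQ. The summed FPKM of 7 stromal fibroblast markers ran from 194 to 224 in Control, from 123 to 155 in CTX and from 116 to 253 in CTX_HCQ. The summed FPKM of 7 oviduct and ciliated cell markers ran from 5.11 to 78.9 in Control, from 72 to 381 in CTX and from 9.64 to 18.3 in CTX_HCQ. Libraries of the same group differed strongly: the chi-square per degree of freedom between their read counts was 15.2 at the least (Control 2 against 3) and 161 at the most (CTX_HCQ 2 against 3). It covered the tested genes with recovered reads that had at least 10 reads in the pair of libraries. CTX_HCQ 2 and CTX_HCQ 3 stood apart in opposite directions by gene length, which is taken up with Atm. In bulk RNA of this kind, fewer cells of a type and less RNA per cell cannot be told apart.

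All 35 genes were transcribed at low to moderate levels. Mean FPKM over the 9 libraries ran from 1.11 for Palb2, the bridge between BRCA1 and BRCA2, to 19.98 for Usp1, the protease that removes ubiquitin from FANCD2. The median of these means was 3.31, against 6.53 over the tested genes, and only 5 members (Usp1, Fance, Mus81, Chek1 and Xrcc3) lay above that median. A member had between 43 reads (Fanci in CTX_HCQ 2) and 1528 reads (Usp1 in Control 2) in a library. From the lowest to the highest library a member typically spanned 2.11-fold, the median of the 35 ratios. Rad51d was the steadiest at 1.35-fold. Spans above 3-fold were seen for Atm (7.98-fold), Fanci (6.14-fold), Xrcc3 (3.92-fold), Mgmt (3.34-fold) and Chek1 (3.33-fold).

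**Figure D1:**
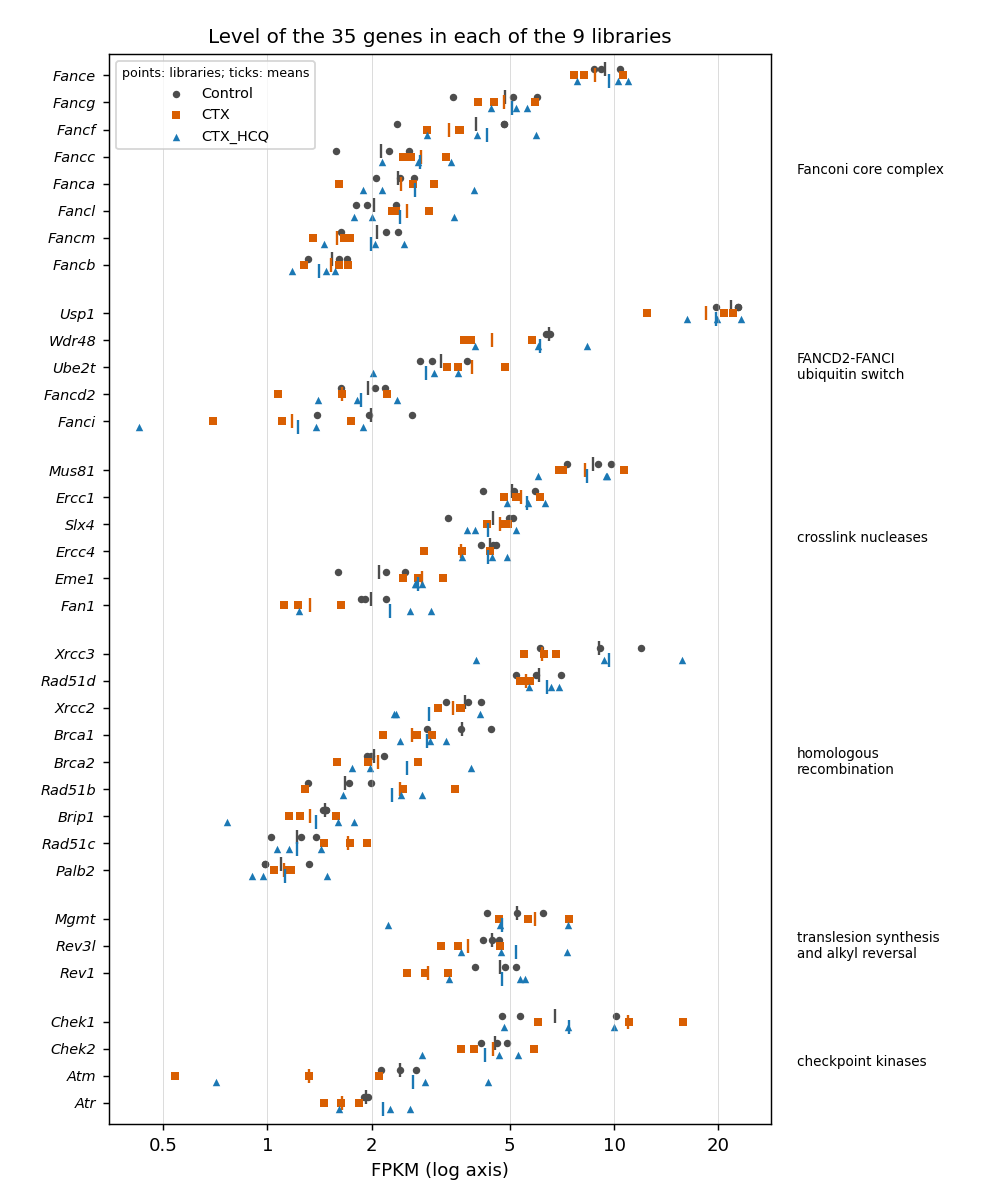
FPKM on a log axis of the 35 genes, grouped by role, in each of the 9 libraries (Control circles, CTX squares, CTX_HCQ triangles; vertical ticks are group means of 3 libraries). For most genes the symbols of the 3 groups are intermingled, while Atm spreads from 0.542 to 4.32 FPKM and Chek1 from 4.74 to 15.8 FPKM.

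The first question was whether crosslink repair and checkpoint transcripts differed in granulosa cells after cyclophosphamide. The time between the injection and the collection of the cells is not given here, so the values say nothing of earlier times. No member passed the test in CTX against Control, and none of the 14431 tested genes did (0%), by limma with Benjamini-Hochberg adjustment at 0.05. At an unadjusted p under 0.05 stood 1 member, Rev1, against 7.8% of tested genes (1126 genes). Differences of log2(FPKM + 1) were below 0 for 22 members and above 0 for 13, with a median of -0.09, where 50.5% of tested genes were below 0, 49.5% above, and the median was -0.00. The 3 CTX values lay wholly below the 3 Control values for 5 members (Rev1, Wdr48, Fan1, Atm and Atr) against 11% of tested genes, and wholly above for 1 (Rad51c) against 8.72%. Of 35 members, 5 was near the first share and 1 was below the second, and with so few members neither count is read as a result about them. The 95% interval of the difference stayed within 1 log2 unit of 0 for 30 of 35 members, against 71.7% of tested genes. The scale understates the change of low genes, and with a pseudocount of 0.1 in place of 1, or on recovered reads with limma's voom, 24 members had such an interval.

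The second question was whether hydroxychloroquine went with a different level after cyclophosphamide, and the third how CTX_HCQ compared with Control. Both share libraries with the first comparison, so the 3 sets of values are given side by side and are not independent. No member and no tested gene (0%) passed the limma test in CTX_HCQ against CTX, or in CTX_HCQ against Control (0%). At an unadjusted p under 0.05, CTX_HCQ against CTX had 1 member, again Rev1, against 5.44% of tested genes (785 genes), and CTX_HCQ against Control had 0 members, against 2.16% (312 genes). Without CTX_HCQ 2 the count in CTX_HCQ against CTX was 7 members, and 2440 of the tested genes. Against CTX, 22 members were higher and 13 lower, with a median log2 difference of 0.07, where 52.1% of tested genes were higher and 47.9% lower. Against Control, 16 were higher and 19 lower, with a median of -0.00, where 48.1% were higher and 51.9% lower. CTX_HCQ lay wholly above CTX for 1 member (Rev1, background 3.45%) and wholly below it for 1 (Rad51c, background 4.57%). It lay wholly above Control for Eme1 (background 3.25%) and wholly below Control for 0 members (background 3.06%). The 95% interval stayed within 1 log2 unit of 0 for 31 members against CTX (background 75.5%) and for 34 against Control (background 80%). With a pseudocount of 0.1 these member counts were 24 and 29, and with voom on recovered reads 23 and 27.

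**Figure D2:**
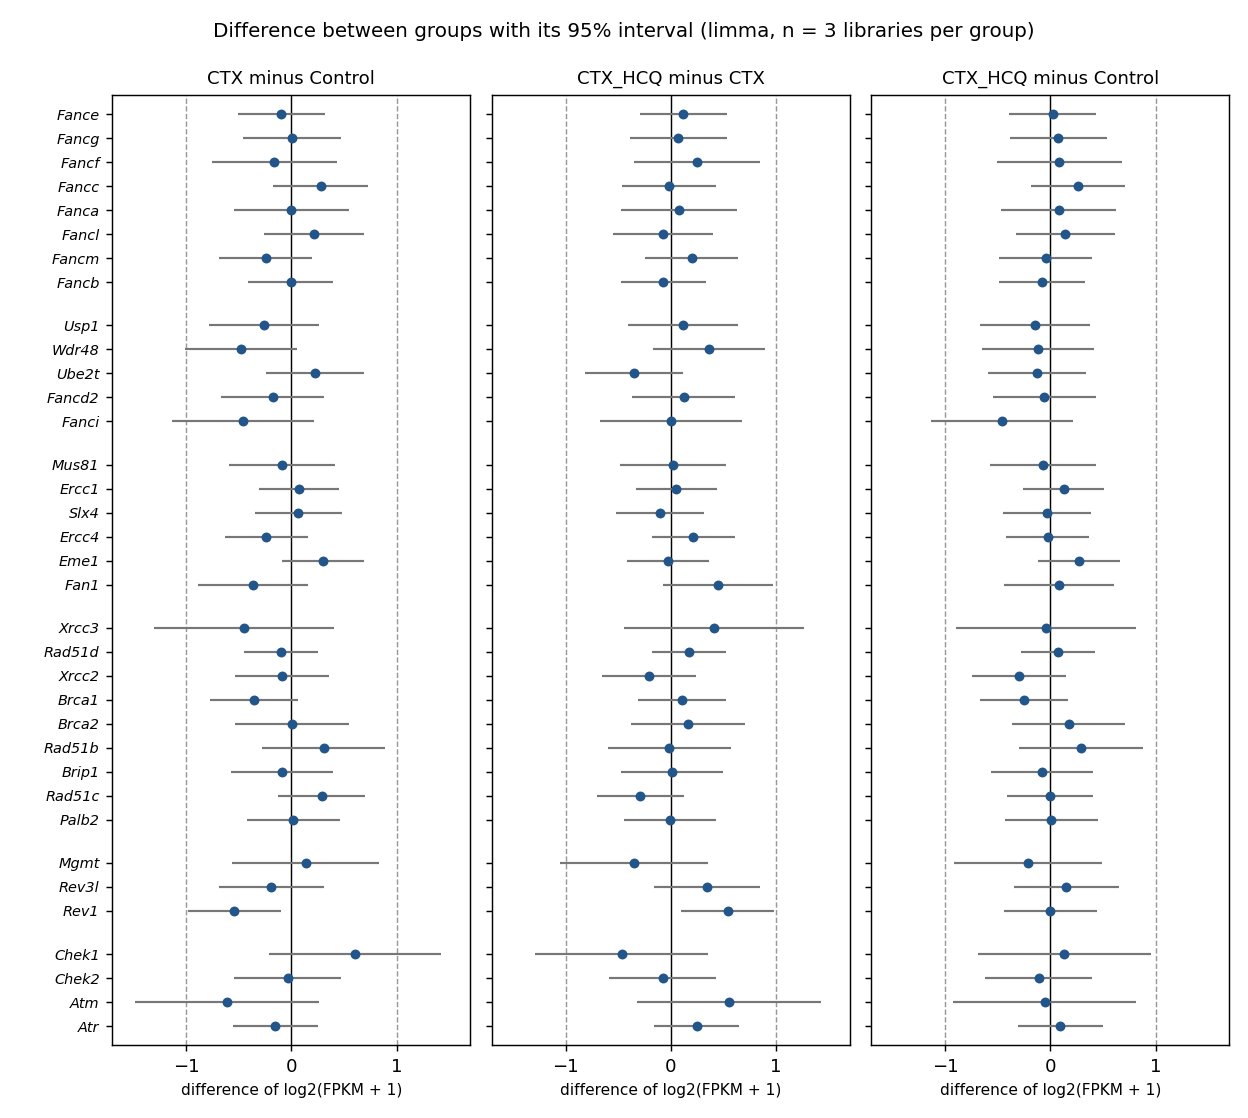
Difference of log2(FPKM + 1) between 2 groups for each of the 35 genes (points), with its 95% interval from limma (bars), in 3 panels for CTX minus Control, CTX_HCQ minus CTX and CTX_HCQ minus Control; dashed lines mark 1 log2 unit either side of 0. Rev1 is the only gene whose interval leaves out 0, in the first panel (below 0) and the second (above 0), and the widest bars belong to Atm, Xrcc3 and Chek1.

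The Fanconi core complex is the ubiquitin ligase that recognises a stalled fork. Its 8 genes sat close together in the 3 groups: 5 of 8 were lower in CTX than in Control with a median log2 difference of -0.00, and 6 of 8 were higher in CTX_HCQ than in Control with a median of 0.08. Against CTX, 5 of 8 were higher in CTX_HCQ, with a median of 0.08. The most abundant was Fance, which links the complex to FANCD2, with 8.75, 9.15 and 10.4 FPKM in Control, 7.65, 8.2 and 10.6 in CTX, and 10.3, 10.9 and 7.82 in CTX_HCQ. Fancg, a scaffold subunit that binds FANCA, had 3.43, 6.01 and 5.1 FPKM in Control, 5.91, 4.04 and 4.49 in CTX, and 5.61, 4.42 and 5.2 in CTX_HCQ. The ranges of the 3 groups overlapped for both. Fancc, the partner of FANCE, had 2.56, 2.25 and 1.57 FPKM in Control, 3.27, 2.59 and 2.45 in CTX, and 2.14, 3.39 and 2.73 in CTX_HCQ. Only CTX 3, at 2.45 FPKM, and CTX_HCQ 1, at 2.14 FPKM, of the treated libraries lay below the highest Control library, and the log2 difference was 0.28 between CTX and Control (limma adjusted p = 0.687). The 5 remaining core genes, Fanca, Fancb, Fancf, Fancl (the catalytic subunit) and Fancm (the translocase that brings the complex to DNA), lay between 1.18 and 5.95 FPKM in every library. Reads of Fancf and Fanca are less certain, because 15.0% of the exon bases of Fancf overlap Gas2 and 10.5% of those of Fanca overlap Zfp276 on the opposite strand, and the sources used here do not give the strand setting of the read counting.

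The ubiquitin switch is what the core complex acts on: UBE2T delivers ubiquitin to FANCD2 and FANCI, and USP1 with its cofactor WDR48 takes it off again. In CTX 4 of the 5 genes were lower than in Control, with a median log2 difference of -0.26, and in CTX_HCQ all 5 were lower than in Control, with a median of -0.13; none passed the test. Wdr48 had 6.38, 6.55 and 6.5 FPKM in Control, 3.68, 5.8 and 3.87 in CTX, and 6.05, 3.98 and 8.33 in CTX_HCQ. The Control libraries lay within a narrow band that no CTX library reached, whereas the CTX_HCQ libraries ran from the CTX range to above Control. Its difference between CTX and Control was -0.48 on the log2 scale (95% interval -1.01 to 0.05; limma adjusted p = 0.653). Of its exon bases 14.9% overlap Gorasp1 on the opposite strand, and Gorasp1 lay between 5.23 and 8.59 FPKM. Fanci had 1.96, 2.62 and 1.39 FPKM in Control, 1.1, 1.74 and 0.696 in CTX, and 1.38, 0.426 and 1.88 in CTX_HCQ. It was lowest in CTX_HCQ 2 and next lowest in CTX 3, the groups overlapped, and its difference between CTX_HCQ and Control was -0.46 (95% interval -1.14 to 0.21). It shares 16.0% of its exon bases with Polg, which lay between 5.15 and 9.67 FPKM. Its partner Fancd2 ranged from 1.07 to 2.37 FPKM, with group means of 1.96 ± 0.293 in Control, 1.65 ± 0.571 in CTX and 1.86 ± 0.489 in CTX_HCQ (SD, n = 3 libraries).

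Usp1, the most abundant of the 35, had 19.6, 22.8 and 22.8 FPKM in Control, 22.1, 20.8 and 12.5 in CTX, and 23.2, 16.2 and 19.8 in CTX_HCQ. CTX 3 was the low library, and the ranges of the 3 groups overlapped with or without it. Ube2t had 3.78, 2.77 and 2.99 FPKM in Control, 3.55, 3.29 and 4.86 in CTX, and 2.02, 3.02 and 3.54 in CTX_HCQ. It ran against the other 4 in CTX, where CTX 3 was highest, and its difference between CTX_HCQ and CTX was -0.35 (95% interval -0.82 to 0.11; limma adjusted p = 0.906).

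Genes of crosslink repair are often transcribed with the cell cycle, through E2F sites, and many have CCAAT boxes or GC boxes near their start. RefSeq held a promoter for 30 of the 35 members (build GRCm38.p6, 300 bases around the start of transcription). The motif TTTCCCGC, an E2F type site searched on both strands, was present in 4 of these 30 (Brca2, Chek2, Fancg and Rad51c), and in 1.07% of all 32851 RefSeq mouse promoters of the same length. TTTGGCGC was found in 0 of 30 members and 0.514% of all, and TTTCGCGC in 1 (Rad51c) and 0.323%. CCAAT was found in 16 of 30 members and 37.4% of all, and GGGCGG, the GC box, in 16 of 30 and 35.7%. Members were counted by gene, with a match in any promoter entry, whereas the shares were counted over promoter entries. The motifs do not overlap one another in the sequences shown, and a match is a description of letters, not a site shown to be used. The promoters of the 3 ubiquitin switch genes with an entry are given because the genes of that role varied most together over the 9 libraries. Their mean pairwise Pearson correlation was 0.271, the highest of the roles. Those of Brca2 and Chek2 are given as examples from the 4 members that hold the E2F type motif TTTCCCGC. Capitals mark the motifs named here on either strand. Fanci lies at chr7:79392088-79392387, Ube2t at chr1:134962315-134962614, Wdr48 at chr9:119894645-119894944, Brca2 at chr5:150522371-150522670 and Chek2 at chr5:110839733-110840032, each read 5′ to 3′ on the plus strand.
Fanci: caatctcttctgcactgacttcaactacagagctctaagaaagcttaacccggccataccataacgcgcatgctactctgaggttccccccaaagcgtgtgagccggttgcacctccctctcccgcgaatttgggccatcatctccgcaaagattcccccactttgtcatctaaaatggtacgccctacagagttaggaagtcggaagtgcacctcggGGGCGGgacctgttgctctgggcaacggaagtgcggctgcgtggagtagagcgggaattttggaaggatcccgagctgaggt
Ube2t: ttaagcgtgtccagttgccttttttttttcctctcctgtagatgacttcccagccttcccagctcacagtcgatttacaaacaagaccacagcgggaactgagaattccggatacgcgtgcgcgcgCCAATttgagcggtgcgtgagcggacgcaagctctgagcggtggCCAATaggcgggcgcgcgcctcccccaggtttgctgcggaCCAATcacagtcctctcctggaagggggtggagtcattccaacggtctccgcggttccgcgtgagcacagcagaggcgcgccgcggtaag
Wdr48: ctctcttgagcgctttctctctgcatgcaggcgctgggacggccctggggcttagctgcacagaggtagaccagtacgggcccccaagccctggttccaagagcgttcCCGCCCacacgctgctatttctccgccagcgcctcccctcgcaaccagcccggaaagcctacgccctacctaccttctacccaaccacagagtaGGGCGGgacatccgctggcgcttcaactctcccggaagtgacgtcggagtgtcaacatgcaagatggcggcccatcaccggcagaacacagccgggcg
Brca2: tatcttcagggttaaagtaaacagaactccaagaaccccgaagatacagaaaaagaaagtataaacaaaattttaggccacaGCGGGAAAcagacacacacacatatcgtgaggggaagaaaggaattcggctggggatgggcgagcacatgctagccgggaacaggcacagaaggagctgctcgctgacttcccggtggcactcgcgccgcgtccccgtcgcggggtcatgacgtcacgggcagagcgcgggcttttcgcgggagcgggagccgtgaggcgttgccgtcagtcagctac
Chek2: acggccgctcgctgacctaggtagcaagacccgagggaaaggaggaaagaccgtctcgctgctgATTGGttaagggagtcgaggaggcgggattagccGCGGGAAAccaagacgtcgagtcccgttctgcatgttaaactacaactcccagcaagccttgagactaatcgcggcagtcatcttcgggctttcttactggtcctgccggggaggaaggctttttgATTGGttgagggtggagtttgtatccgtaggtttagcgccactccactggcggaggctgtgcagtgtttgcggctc
Ube2t holds 3 CCAAT boxes and no GC box, while Wdr48 holds 2 GC boxes and Fanci 1, with no CCAAT box in either window. Brca2 and Chek2 share the E2F type motif on the minus strand. The mean FPKM of Brca2 was 2.04 ± 0.125 in Control, 2.09 ± 0.582 in CTX and 2.54 ± 1.16 in CTX_HCQ (SD, n = 3 libraries). That of Chek2 was 4.54 ± 0.401 in Control, 4.49 ± 1.22 in CTX and 4.24 ± 1.29 in CTX_HCQ (SD, n = 3 libraries). The groups overlapped for both genes. Of the other members with this motif, the groups of Fancg overlapped as well, while the CTX libraries of Rad51c lay above those of both other groups.

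The nucleases unhook the crosslink: SLX4 is the scaffold that holds ERCC4 (XPF) with ERCC1 and MUS81 with EME1, and FAN1 is recruited by ubiquitinated FANCD2. Eme1 was higher on average in both treated groups than in Control, with 1.6, 2.2 and 2.5 FPKM in Control, 3.21, 2.72 and 2.47 in CTX, and 2.8, 2.69 and 2.67 in CTX_HCQ. All 3 CTX_HCQ libraries lay above all 3 Control libraries, and CTX 3 alone of the CTX libraries fell within the Control range. The log2 difference was 0.30 for CTX against Control (95% interval -0.09 to 0.69; limma adjusted p = 0.653) and 0.27 for CTX_HCQ against Control (95% interval -0.12 to 0.66; limma adjusted p = 1). Eme1 rested on 75 to 149 reads a library, and 8.0% of its exon bases overlap Lrrc59, which stood at 53.8 to 119 FPKM, on the opposite strand.

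Fan1 went the other way in CTX, with 1.91, 2.19 and 1.87 FPKM in Control, 1.12, 1.64 and 1.22 in CTX, and 2.58, 1.23 and 2.96 in CTX_HCQ. Every CTX library lay below every Control library, and the CTX_HCQ libraries were split, 2 above Control and CTX_HCQ 2 within the CTX range. Its difference was -0.37 between CTX and Control (limma adjusted p = 0.665) and 0.45 between CTX_HCQ and CTX (95% interval -0.07 to 0.97; limma adjusted p = 0.906). Mus81, the catalytic partner of EME1, had 7.3, 9.83 and 9.0 FPKM in Control, 7.12, 6.94 and 10.7 in CTX, and 9.57, 9.51 and 6.05 in CTX_HCQ, and Ercc1 had 4.18, 5.14 and 5.93 FPKM in Control, 5.22, 4.82 and 6.11 in CTX, and 4.92, 5.64 and 6.31 in CTX_HCQ. The ranges of all 3 groups overlapped for both. Slx4 lay between 3.33 and 5.23 FPKM and Ercc4 between 2.83 and 4.91 FPKM.

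Homologous recombination restores the broken fork: BRCA1 starts it, PALB2 links it to BRCA2, and the products of Rad51b, Rad51c, Rad51d, Xrcc2 and Xrcc3 form complexes that assist strand exchange. The 9 genes were split, 5 lower and 4 higher in CTX than in Control, with a median log2 difference of -0.09. Brca1 had 2.88, 4.42 and 3.63 FPKM in Control, 2.7, 2.98 and 2.15 in CTX, and 3.29, 2.41 and 2.95 in CTX_HCQ. Control 1 lay below CTX 2, so the groups overlapped, and the difference between CTX and Control was -0.36 (95% interval -0.77 to 0.06; limma adjusted p = 0.653). Against Control the difference of CTX_HCQ was -0.25.

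Rad51c was the one gene of the 35 whose CTX libraries lay above both other groups, with 1.25, 1.39 and 1.02 FPKM in Control, 1.94, 1.73 and 1.46 in CTX, and 1.16, 1.07 and 1.43 in CTX_HCQ. The margins were small: the lowest CTX library stood at 1.46 FPKM, the highest CTX_HCQ library at 1.43 FPKM and the highest Control library at 1.39 FPKM. The log2 difference was 0.29 for CTX against Control (95% interval -0.12 to 0.70; limma adjusted p = 0.666) and -0.29 for CTX_HCQ against CTX (95% interval -0.70 to 0.12; limma adjusted p = 0.906). It rested on 74 to 143 reads a library.

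The other genes of these complexes showed no separation of the groups. Rad51b had 1.99, 1.72 and 1.31 FPKM in Control, 2.47, 1.28 and 3.48 in CTX, and 1.65, 2.79 and 2.43 in CTX_HCQ, and the spread within CTX spanned that of Control and CTX_HCQ. Xrcc2 had 4.12, 3.78 and 3.27 FPKM in Control, 3.1, 3.63 and 3.6 in CTX, and 2.35, 2.31 and 4.11 in CTX_HCQ, with 2 of 3 CTX_HCQ libraries below all others and the third among the highest. The most variable was Xrcc3, with 6.13, 12 and 9.13 FPKM in Control, 5.49, 6.26 and 6.82 in CTX, and 9.34, 3.99 and 15.7 in CTX_HCQ. Its lowest and highest libraries, CTX_HCQ 2 and CTX_HCQ 3, belonged to the same group, and the group mean of 9.67 FPKM had an SD of 5.84 (n = 3 libraries). Rad51d, the steadiest gene of the set, had 7.04, 5.94 and 5.23 FPKM in Control, 5.73, 5.37 and 5.59 in CTX, and 6.56, 6.96 and 5.7 in CTX_HCQ. Brca2 lay between 1.59 and 3.87 FPKM, Brip1, the helicase bound to BRCA1, between 0.767 and 1.78 FPKM, and Palb2 between 0.904 and 1.49 FPKM.

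Translesion synthesis fills the gap opposite the unhooked crosslink: REV1 can insert a base there and recruits polymerase zeta, whose catalytic subunit is encoded by Rev3l. Rev1 had the smallest p of the 35 in both comparisons with CTX, with 3.97, 5.22 and 4.84 FPKM in Control, 2.53, 3.32 and 2.85 in CTX, and 5.54, 3.34 and 5.35 in CTX_HCQ. All CTX libraries lay below all Control libraries and below all CTX_HCQ libraries, although CTX_HCQ 2 stood at 3.34 FPKM beside 3.32 FPKM in CTX 2. Mean FPKM was 4.68 ± 0.64 in Control, 2.9 ± 0.394 in CTX and 4.74 ± 1.22 in CTX_HCQ (SD, n = 3 libraries). The log2 difference was -0.54 ± 0.20 (SE) for CTX against Control (95% interval -0.98 to -0.10), with a limma p of 0.0215 before and 0.639 after Benjamini-Hochberg adjustment. For CTX_HCQ against CTX it was 0.54 ± 0.20 (SE; 95% interval 0.10 to 0.98), with a limma p of 0.0218 before and 0.833 after adjustment, and for CTX_HCQ against Control it was -0.00. Without Control 2, Control 3 or CTX 1, left out 1 at a time, the unadjusted p for CTX against Control was above 0.05, and so was that for CTX_HCQ against CTX without CTX 1, CTX_HCQ 1 or CTX_HCQ 3. With limma's library weights, which give noisier libraries less say, Rev1 passed in CTX against Control (-0.61, limma adjusted p = 0.0431), as did 648 of the 14431 genes; over all settings its adjusted p ran from 0.0431 to 0.977.

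The differences of stromal fibroblast markers had mostly the same sign as those of Rev1, Fan1 and Wdr48 in these 2 comparisons. All 7 were lower in CTX than in Control (median log2 difference -0.35), 3 of them without overlap of the groups (11% of tested genes), and 6 of 7 were higher in CTX_HCQ than in CTX (0.34), and none passed the limma test. Their summed level was lowest in CTX_HCQ 3 (116 FPKM), where Rev1 stood at 5.35, Fan1 at 2.96 and Wdr48 at 8.33 FPKM, and none of the 7 markers was at 0. Oviduct and ciliated cell markers had mostly the opposite sign. All 7 were higher in CTX than in Control (median log2 difference 1.13), and 5 had an unadjusted limma p under 0.05 (7.8% of tested genes). Against CTX, 6 of the 7 were lower in CTX_HCQ (median -1.30), all 6 without overlap (4.57% of tested genes). The 7 endothelial markers had mostly that sign too. None passed the limma test. The part of any of these markers in the values of Rev1, Fan1 and Wdr48 was not tested.

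A limit bears on Rev1 directly. Of its exon bases 26.6% overlap Eif5b, a translation initiation factor gene on the opposite strand, the largest such overlap among the 35. Eif5b had 6.9, 7.57 and 10.1 FPKM in Control, 11.5, 8.28 and 17.5 in CTX, and 8.72, 17.5 and 9.996 in CTX_HCQ. It was higher in CTX than in Control by 0.51 on the log2 scale, the opposite direction to Rev1, and its part in the Rev1 values was not tested. Rev3l had 4.46, 4.19 and 4.67 FPKM in Control, 3.56, 4.69 and 3.16 in CTX, and 4.74, 3.61 and 7.32 in CTX_HCQ. CTX_HCQ 3 was far above the other 8 libraries, and the difference between CTX_HCQ and CTX was 0.34 (95% interval -0.16 to 0.84; limma adjusted p = 0.906). Without CTX_HCQ 3 it was 0.11. Mgmt, which takes alkyl groups off guanine directly, had 6.23, 4.29 and 5.26 FPKM in Control, 7.44, 5.65 and 4.67 in CTX, and 4.69, 7.37 and 2.23 in CTX_HCQ. It was lowest in CTX_HCQ 3, where Rev3l was highest, and its groups overlapped.

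Among the 4 checkpoint kinases, Atm and Chek1 varied most between libraries. Atr had 1.9, 1.92 and 1.96 FPKM in Control, 1.45, 1.63 and 1.84 in CTX, and 2.27, 1.61 and 2.59 in CTX_HCQ, and Chek2 had 4.12, 4.92 and 4.59 FPKM in Control, 3.63, 3.96 and 5.88 in CTX, and 2.79, 4.65 and 5.28 in CTX_HCQ. The CTX libraries lay below Control for Atr, by -0.15 on the log2 scale (95% interval -0.55 to 0.25), and the ranges of Chek2 overlapped. Atm, named after its values were seen, had 2.13, 2.68 and 2.42 FPKM in Control, 1.32, 2.1 and 0.542 in CTX, and 2.85, 0.714 and 4.32 in CTX_HCQ. CTX_HCQ 2 and CTX_HCQ 3, of the same group, stood near the bottom and at the top of the 9 libraries, and the CTX libraries lay below the Control libraries. The difference was -0.61 between CTX and Control (95% interval -1.48 to 0.27; limma adjusted p = 0.667) and 0.55 between CTX_HCQ and CTX (95% interval -0.32 to 1.43; limma adjusted p = 0.906).

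Atm is one of 9 members with at least 8000 exon bases, with Fanca, Fancc, Fancm, Wdr48, Brca1, Brca2, Rev3l and Atr, and these went the same way as long genes in general. In CTX against Control 7 of the 9 were lower, with a median log2 difference of -0.19, and of the 2138 tested genes of that length only 26.1% were higher, with a median of -0.16. In CTX_HCQ against CTX 8 of the 9 were higher, with a median of 0.20, and of all genes of that length 80.2% were higher, with a median of 0.17. Against Control the 9 split 5 to 4 in CTX_HCQ, with a median of 0.08 beside -0.00 for all genes of that length. The 14 members under 4000 bases had medians of -0.02, 0.04 and 0.05 in the same order, beside 0.10, -0.09 and -0.01 for the 7242 tested genes of that length. By library, the 9 long members lay 0.52 above their own means in CTX_HCQ 3, 0.22 below in CTX_HCQ 2 and 0.28 below in CTX 1 (medians, log2). All tested genes of that length lay 0.24 above, 0.17 below and 0.13 below in these libraries. In CTX 3 the 9 members lay 0.06 below and all tested genes of that length 0.22 below. After a smooth trend on exon length was removed from each library, 15 members were higher and 20 lower in CTX than in Control, and 16 were higher and 19 lower in CTX_HCQ than in CTX, with medians of -0.04 and -0.00.

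**Figure D3:**
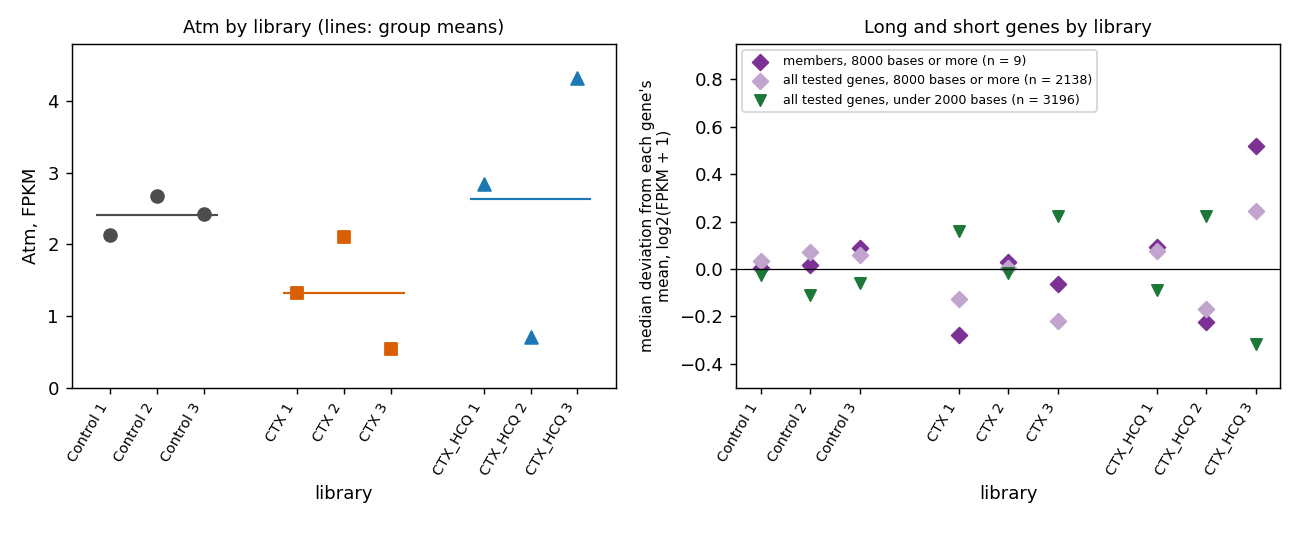
Left, Atm in FPKM in each library, with lines at the group means. Right, for each library, the median deviation from each gene's own mean, on the log2(FPKM + 1) scale, of the 9 long members, of all 2138 tested genes of at least 8000 exon bases and of all 3196 tested genes under 2000 bases: in every library all long genes and all short genes lie on opposite sides of 0, and CTX_HCQ 2 and CTX_HCQ 3 are opposite to each other.

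Chek1, the kinase through which ATR holds the cell cycle and the most abundant of the 4, had 10.2, 5.34 and 4.74 FPKM in Control, 15.8, 11 and 6.02 in CTX, and 4.83, 10.02 and 7.35 in CTX_HCQ. CTX 1 and CTX 2 were the highest, followed by Control 1 and CTX_HCQ 2, so each group held at least 1 library at or above 10.02 FPKM and at least 1 at or below 6.02 FPKM. The log2 difference was 0.60 for CTX against Control (95% interval -0.22 to 1.42; limma adjusted p = 0.656) and -0.47 for CTX_HCQ against CTX (95% interval -1.29 to 0.35). One library changed the size of the first: leaving out CTX 1 gave 0.31 and leaving out CTX 3 gave 0.94. With library weights it was 1.03 (limma adjusted p = 0.0498, in a range over settings from 0.0498 to 0.977). Those weights were 0.593 for Control 1, 3.72 for Control 2 and 2.48 for Control 3. They were 0.376 for CTX 3, the lowest CTX library in Chek1, and 1.42 and 1.37 for CTX 1 and CTX 2. Without Control 1, and with no weights, the difference between CTX and Control was 0.90.

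The libraries high in Chek1 were also high in endothelial genes. Pecam1, an adhesion molecule of endothelial cells, had 9.2, 2.79 and 2.37 FPKM in Control, 13, 8.71 and 4.22 in CTX, and 2.38, 7.24 and 4.41 in CTX_HCQ. Cdh5, the cadherin of endothelial junctions, had 18.1, 6.83 and 7.19 FPKM in Control, 19.4, 16.8 and 10.8 in CTX, and 6.9, 14.1 and 8.0 in CTX_HCQ, and Ptgfr, the prostaglandin receptor of luteal cells, had 71.7, 8.86 and 7.71 FPKM in Control, 119, 64.8 and 15.6 in CTX, and 12, 40.3 and 29.8 in CTX_HCQ. For each of these genes, picked after their values were seen, the 4 highest libraries were the 4 highest in Chek1: CTX 1, CTX 2, Control 1 and CTX_HCQ 2. The same 4 libraries were highest for 6 of the 7 endothelial markers, and for 3.15% of all tested genes. Among the 5 luteal markers this held for Ptgfr alone: Akr1c18, Lhcgr, Prlr and Scarb1 had another set of 4, and Akr1c18 was lowest in Control 1. All 7 endothelial markers and all 5 luteal markers passed the filter and none was at 0, and the summed luteal markers ran from 275 to 590 FPKM in Control, from 301 to 713 in CTX and from 201 to 339 in CTX_HCQ. Their part in the Chek1 values was not tested. Of the 34 replication and mitosis genes, 0 had the 4 libraries of Chek1 as their highest, which is near the background of 3.15%. Among the other members, Fancl and Mgmt had these 4 libraries as their highest, as did 2 of 17 tested p53 targets, Sesn1 and Plk2. Top2a, the topoisomerase of dividing cells, had 20.5, 27.5 and 21.4 FPKM in Control, 19.3, 23.5 and 22.8 in CTX, and 24, 20.04 and 21.6 in CTX_HCQ, and Mki67, the proliferation antigen, had 15.5, 11.1 and 14.5 FPKM in Control, 13.9, 14.8 and 28.4 in CTX, and 12.3, 18.4 and 26.3 in CTX_HCQ. Top2a stayed within a narrow band, and Mki67 was highest in CTX 3 and CTX_HCQ 3.

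**Figure D4:**
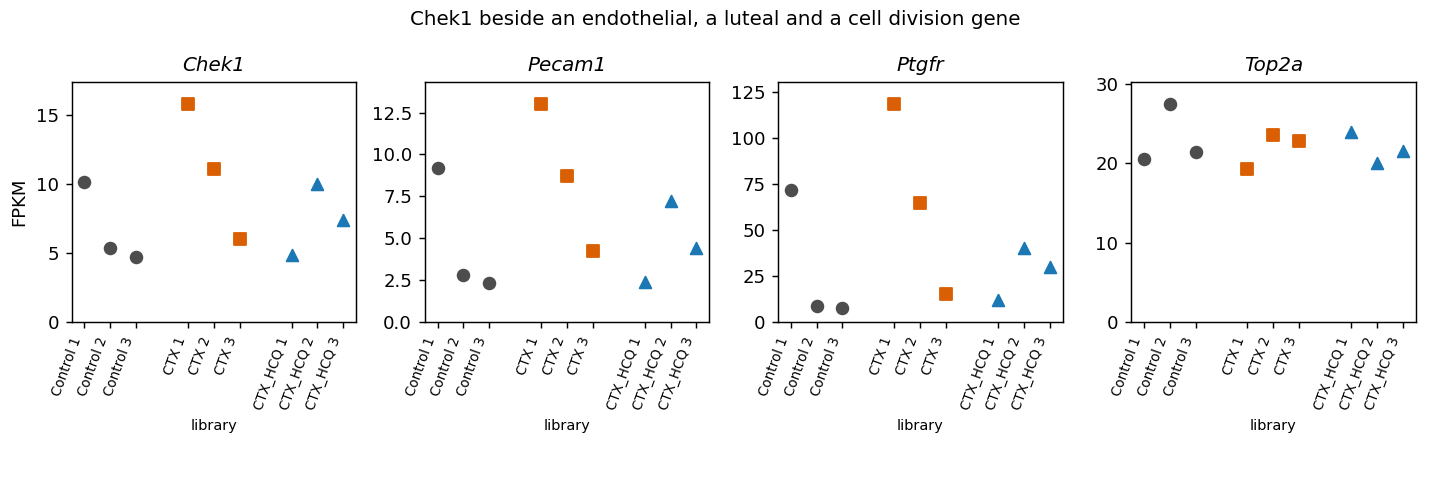
FPKM (linear axes from 0) in each of the 9 libraries of Chek1, the endothelial gene Pecam1, the luteal gene Ptgfr and the cell division gene Top2a. CTX 1, CTX 2, Control 1 and CTX_HCQ 2 are the 4 highest libraries for Chek1, Pecam1 and Ptgfr, and Top2a lies between 19.3 and 27.5 FPKM throughout.

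Beyond the 35, no gene passed the limma test in any of the other repair lists. In CTX against Control 14 of 25 further recombination genes were lower (median log2 difference -0.03), as were 15 of 22 checkpoint signalling genes (-0.09), 11 of 15 nucleotide excision repair genes (-0.08) and 21 of 34 replication and mitosis genes (-0.04). Higher were 11 of 15 base excision and alkylation repair genes (0.10) and 6 of 10 tested translesion polymerase and PCNA ubiquitin genes (0.20), and end joining was split 4 to 5. All 6 tested mismatch repair genes, which recognise mispaired alkylated bases, were lower in CTX than in Control (-0.11) and higher in CTX_HCQ than in CTX (0.19), and the smallest limma adjusted p among them was 0.665 in the first comparison and 0.906 in the second. Of 10 tested further Fanconi and crosslink genes 6 were lower in CTX, and 1 of them, Dclre1b, the nuclease Apollo that trims crosslinked ends and telomeres, had an unadjusted p under 0.05.

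Of the p53 targets, which answer the checkpoint kinases, 11 of 17 tested were lower in CTX than in Control, with a median log2 difference of -0.39, and 4 of the 17 (Cdkn1a, Zmat3, Trp53inp1 and Eda2r) had an unadjusted p under 0.05, where 7.8% of all tested genes did. In CTX_HCQ 15 of the 17 were lower than in Control (median -0.17) and 10 were higher than in CTX (0.14), with 0 at an unadjusted p under 0.05 in either. No p53 target passed the limma test in any of the 3 comparisons. By library, the median deviation of the 17 targets from their own means (log2) was -0.20, 0.19 and 0.49 in Control. It was -0.12, -0.15 and -0.09 in CTX, and 0.20, -0.14 and -0.32 in CTX_HCQ. Control 1 lay below all 3 CTX libraries, so the lower level in CTX rested on Control 2 and Control 3. Cdkn1a, the cell cycle inhibitor p21, had 7.05, 30.4 and 40.7 FPKM in Control, 6.74, 6.93 and 5.0 in CTX, and 25.1, 4.28 and 8.53 in CTX_HCQ. Dclre1b had 1.66, 4.54 and 6.02 FPKM in Control, 1.17, 1.3 and 0.949 in CTX, and 4.6, 0.973 and 1.13 in CTX_HCQ. Both were high in the same 3 libraries, Control 2, Control 3 and CTX_HCQ 1, and low in the other 6, and those 3 were the lowest in Chek1. Control 1 was nearer to the CTX libraries than to the other two Control libraries for Cdkn1a and Dclre1b. The log2 difference between CTX and Control was -1.61 for Cdkn1a (limma p of 0.0318 before adjustment) and -1.14 for Dclre1b (limma p of 0.0255 before adjustment), and the limma adjusted p was 0.639 for both.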

How the data were processed

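Gene expression was measured by RNA sequencing of polyadenylated RNA from 9 libraries in 3 groups, taken from the labels. The authors deposited FPKM, read numbers per exon length and library size. The submitters' processing notes name HISAT2 2.0.5, DESeq2 1.20.0, fastp 0.23.2, featureCounts 1.5.0-p3 and the build GRCm39 (mm39), with no roles or settings given. Symbols and exon lengths came from an annotation of another build (GENCODE M21), and 52073 of 56748 identifiers matched a symbol. Whole reads could be recovered from the FPKM within 0.02 reads for 99.71% of tested genes. For 94.1% this used the annotated exon length, and for 812 genes another length, found by a search for whole reads in all 9 libraries.

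Genes that reached 1 FPKM in 3 or more of the 9 libraries were tested as log2(FPKM + 1), in 1 limma 3.58.1 model (R 4.3.3) with a mean per group and variances that follow mean expression. P-values were adjusted by Benjamini-Hochberg over all 14431 tested genes, with a threshold of 0.05. The steps were tested on simulated data. The members, the lists and the alternatives were chosen with earlier results of these data known. Library values are given for members that passed a test, for the 6 of smallest p in each comparison and for the 2 most abundant of each role. Those of Atm and Atr are given outside this rule. Atm and the genes set beside Chek1 were named after their values were seen. Of the other lists, up to 3 genes of smallest p per comparison could be named, along with single genes fixed by name, of which 1 is not reported here. Beside the main analysis 20 other settings were run, 18 of them planned. Promoter sequences are those of RefSeq for GRCm38.p6; no coordinates of the files' build were used.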

Additional observations from a re-analysis of the deposited data

How the results depend on the processing

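The differences of the 6 members of smallest p in each comparison kept their sign in each of 20 other settings that tested them, and 0 members passed in any of them except with library weights. Library weights gave 648 genes past the threshold in CTX against Control and 1 in each of the other two comparisons, with 2 members among the 648: Rev1 at -0.61 (limma adjusted p = 0.0431) and Chek1 at 1.03 (limma adjusted p = 0.0498). Over all settings the adjusted p of Rev1 ran from 0.0431 to 0.977 and that of Chek1 from 0.0498 to 0.977. Leaving out 1 library at a time gave 0 to 13 genes past the threshold in CTX against Control, 0 to 10 in CTX_HCQ against CTX and 0 to 0 in CTX_HCQ against Control, and the 13 and the 10 came without Control 1. The number of members whose groups did not overlap was 6, 2 and 1 in the 3 comparisons. It ran from 6 to 17, 2 to 12 and 1 to 7 when 1 library was left out, and fewer libraries overlap less. The count also depended on which library was left out. In CTX against Control it was 17 without Control 1, 7 without Control 2 and 10 without Control 3. Without CTX 3 and CTX_HCQ 3 together the number of such members was 13, 12 and 5. For the 9 members with mean FPKM of at least 5 it was 1, 0 and 0. With quantile normalization it was 0 in CTX_HCQ against Control. With the length trend removed it was 5 in CTX_HCQ against CTX and 0 in CTX_HCQ against Control. The share over all tested genes is not given for these settings, so the counts are not read as a result about the members. The setting without CTX 3 and CTX_HCQ 3 and the length trend were chosen after seeing the data. The median difference over the members in CTX_HCQ against CTX, 0.07, was -0.01 without those 2 libraries and -0.00 without the length trend. Over the members it ran from -0.10 to -0.03, 0.00 to 0.12 and -0.08 to 0.06 in the 3 comparisons when 1 library was left out. Genes at an unadjusted p under 0.05, 1126, 785 and 312, numbered 3935, 2832 and 905 with library weights, 1906, 1713 and 926 of 32879 genes without the filter, 580, 370 and 146 of 8387 genes with the stricter one, 2067 in CTX against Control when only its libraries were fitted, and 424 to 1693, 483 to 2440 and 157 to 1079 when 1 library was left out.

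Replicate numbers are shared between groups without a stated meaning, and deviations of same-numbered libraries correlated between -0.457 and 0.135, so no pairing was assumed. With the replicate number as a block, 0 genes passed in each comparison, and 847, 668 and 293 genes had an unadjusted p under 0.05, against 1126, 785 and 312 without the block. With 3 libraries a group and members of 43 to 1528 reads a library, the 95% interval of the difference reached 1 log2 unit or more from 0 for 5, 4 and 1 of the 35 members in the 3 comparisons. It stayed within 1 log2 unit for 30, 31 and 34 members on that scale, but for 24, 24 and 29 with a pseudocount of 0.1. With voom on recovered reads the counts were 24, 23 and 27.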

Other observations

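Among all tested genes, those whose library values were most like those of Atm (the strongest Pearson correlation over the 9 libraries, log2(FPKM + 1) scale, given as a description) included Lcor, Med13, Prrc2c and Usp34. Prrc2c, a large cytoplasmic protein gene, had 11.6, 13 and 12.5 FPKM in Control, 8.22, 11.1 and 6.26 in CTX, and 13.9, 6.87 and 21.7 in CTX_HCQ. Usp34, a ubiquitin protease gene, had 7.07, 7.44 and 6.44 FPKM in Control, 4.03, 6.62 and 2.66 in CTX, and 7.84, 3.16 and 9.33 in CTX_HCQ. Ribosomal protein genes were among the most opposite: Rps25 had 121, 97.8 and 106 FPKM in Control, 161, 127 and 245 in CTX, and 95.2, 192 and 65.4 in CTX_HCQ. CTX 3 and CTX_HCQ 2 were high in Rps25 and low in Atm, Prrc2c and Usp34, and CTX_HCQ 3 was the reverse.

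Oviduct RNA varied between libraries. Ovgp1, the oviduct glycoprotein gene, had 55.5, 4.01 and 1.01 FPKM in Control, 91, 44.4 and 339 in CTX, and 4.69, 4.9 and 11.3 in CTX_HCQ. Foxj1, the regulator of ciliated cells, had 11.7, 0.425 and 0.0231 FPKM in Control, 10.6, 14 and 21.5 in CTX, and 1.56, 0.262 and 1.94 in CTX_HCQ. All 3 CTX libraries and Control 1 were above the other 5 in both. Haemoglobin RNA was highest in Control 3, where Hbb-bs stood at 1489.7 FPKM against 141 to 418 FPKM in the other 8 libraries. Cyp17a1, the androgen-forming enzyme of theca cells, had 16.6, 0.584 and 0.986 FPKM in Control, 7.06, 24.7 and 7.65 in CTX, and 0.958, 24.2 and 45.4 in CTX_HCQ. It was under 1 FPKM in Control 2, Control 3 and CTX_HCQ 1, the same 3 libraries that were lowest in Chek1 and highest in Cdkn1a and Dclre1b.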
